A study of Mus musculus with 24 samples.

Results

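Myofibre-restricted expression of the reprogramming factors Oct4, Sox2, Klf4 and c-Myc (OSKM) was examined here for what it does to the difference between a fast and a slow muscle. The data are the 8 whole-muscle RNA-seq libraries of Cre+ mice killed after 2.5 or 8.5 days of doxycycline (Dox), out of 24 in the series. They are of extensor digitorum longus (EDL) and soleus (SOL). Same-numbered EDL and SOL libraries of a group were taken as 1 mouse, which the labels do not state. This gives 4 Cre+ mice here and 12 mice in the series. The libraries were chosen from the sample labels by muscle, genotype and day, and the 8 libraries of the 4 Cre- mice of the same days served as reference. On this pairing there were 2 mice per genotype and day. All mice were 2 months old, carried the tetracycline-driven 4F (OSKM) cassette in 1 copy (4Fhet) and drank Dox at 1 mg/ml. They differed in the Acta1-Cre transgene, which in Cre+ mice (Acta1-Cre+/4Fhet) removes a stop cassette and lets rtTA be made in myofibres, while Cre- mice (Acta1-Cre-/4Fhet) keep the stop. Satellite cells, endothelium, fibroblasts, nerve and blood in the tissue were therefore sequenced together with the myofibres in which the cassette was switched on, and the counts do not separate cassette transcripts from those of the endogenous factor genes. In bulk muscle, fewer cells of a type and less RNA per cell cannot be told apart. The paper removed samples lacking OSKM overexpression as outliers and reports 2.5 and 8.5 days but not 5.5 days. Of the 5.5-day libraries, those of Cre- mice were used here only to choose fast and slow genes outside the comparison. Per-library values are given in the order 2.5 days replicate 1, 2.5 days replicate 2, 8.5 days replicate 1, 8.5 days replicate 2.

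Fast and slow muscles are built from fibres that use different isoforms of the same contractile parts. Fast fibres carry fast myosin heavy chains, fast troponins and parvalbumin, store calcium on Casq1, release and clear it quickly and draw ATP from glycogen and glucose. Slow fibres carry Myh7 and slow troponins, burn fatty acids in dense mitochondria and stay active for long periods. The identity of a fibre is held by activity-dependent signals such as calcineurin and by transcription factors such as Eya1, Sox6 and Tbx15 on the fast side and Prox1 and the Err family on the slow side.

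The promoters of 4 genes stand for the outcomes described below. Tnni1 and Myl3 encode slow troponin I and the slow myosin light chain, whose muscle difference was kept. Casq1 encodes the fast calsequestrin, whose difference was called narrower over all 8 mice but not on leaving out most of them. Actc1 encodes cardiac actin, which developing muscle also makes. Its muscle difference was called with opposite signs in the 2 genotypes, though the Cre+ difference was small (-0.51 on the log2 scale). Each sequence runs 5′ to 3′ on the strand of the gene, from 250 bases before to 50 bases after the RefSeq start site (GRCm38.p6), and capitals mark the motif matches found in it.
Tnni1, chr1:135799171-135799470, plus strand: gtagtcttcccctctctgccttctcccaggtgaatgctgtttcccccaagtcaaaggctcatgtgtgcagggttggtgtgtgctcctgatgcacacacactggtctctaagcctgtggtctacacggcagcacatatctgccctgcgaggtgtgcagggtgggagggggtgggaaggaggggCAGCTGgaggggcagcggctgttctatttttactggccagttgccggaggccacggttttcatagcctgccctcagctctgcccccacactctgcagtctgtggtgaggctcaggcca
Myl3, chr9:110763428-110763727, plus strand: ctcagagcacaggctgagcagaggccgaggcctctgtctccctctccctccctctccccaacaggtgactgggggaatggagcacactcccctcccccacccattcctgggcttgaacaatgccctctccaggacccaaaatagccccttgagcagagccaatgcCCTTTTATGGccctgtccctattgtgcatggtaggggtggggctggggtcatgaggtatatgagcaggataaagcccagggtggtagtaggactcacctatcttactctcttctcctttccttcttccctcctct
Casq1, chr1:172219846-172220145, minus strand: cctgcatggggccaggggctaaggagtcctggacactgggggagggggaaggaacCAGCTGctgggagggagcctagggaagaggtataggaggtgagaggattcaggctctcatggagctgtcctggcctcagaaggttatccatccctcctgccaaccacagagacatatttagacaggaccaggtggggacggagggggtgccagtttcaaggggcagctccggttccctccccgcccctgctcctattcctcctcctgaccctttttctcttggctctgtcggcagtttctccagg
Actc1, chr2:114052826-114053125, minus strand: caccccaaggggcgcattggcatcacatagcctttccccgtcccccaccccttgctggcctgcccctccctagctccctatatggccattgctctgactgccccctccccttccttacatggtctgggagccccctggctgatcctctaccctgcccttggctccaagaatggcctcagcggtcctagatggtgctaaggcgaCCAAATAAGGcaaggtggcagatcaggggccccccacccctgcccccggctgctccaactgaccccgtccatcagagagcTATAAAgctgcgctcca
The Tnni1 and Casq1 windows held the MyoD-type E-box CAGCTG, first base at position -68 and -195 from the start, and the Myl3 and Actc1 windows held a CArG box, the site of serum response factor, at -85 and -47. Actc1 also held TATAAA at 34. Of the 32851 promoter windows of this length in the table, searched on both strands, 16.3% held CAGCTG, 1.63% a CArG box and 13.6% TATAAA. Motifs were thus shared between examples of different outcomes, and the matches are descriptions of the letters only.

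Myh4 and Myh7 separated the 2 muscles in every library. Myh4, the fast IIb myosin heavy chain, lay between 2695 and 7905 FPKM (reads per kilobase of exon, scaled to the number of reads counted in the library) in the 8 EDL libraries and between 21.1 and 521 in the 8 SOL libraries, and Myh7, the slow type I chain, between 4.82 and 88.6 in EDL and between 1848 and 3700 in SOL. Total counts lay between 41026430 and 53041969 in the Cre+ libraries and between 36088781 and 45622722 in the Cre- libraries. All 8 libraries of 2.5 days held Y-linked transcripts above Xist and all 8 of 8.5 days held the reverse, so day and sex cannot be told apart in these mice. Same-numbered EDL and SOL libraries of a group were taken as 1 mouse, which the labels do not state, and muscle differences were tested within these pairs, by edgeR's quasi-likelihood test with a block per mouse over 15372 genes, and genes were called at a Benjamini-Hochberg adjusted p under 0.05 with an absolute log2 fold change over 0.5. Adjusted p values of muscle differences and of their change between genotypes come from this fit, unless another is named. Those of genotype differences within a muscle come from a fit without the block. Those between days come from a blocked fit with a muscle effect in each genotype and day. With so few mice, those of the blocked fits rest on how much the muscle difference varied among these animals.

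The factors themselves were unequal between the muscles. Sox2 stood at 7.17, 30.7, 29.3 and 21.7 FPKM in the Cre+ EDL libraries and at 2.00, 4.64, 4.76 and 2.47 in the Cre+ SOL libraries. Every Cre+ EDL library lay above every Cre+ SOL library, and the EDL library of 2.5 days replicate 1 was the lowest of its group. The log2 difference was 2.52 (standard error 0.19, adjusted p = 4.3e-06), against means of 0.0446 ± 0.0181 in EDL and 0.0590 ± 0.0335 in SOL of Cre- mice (SD, n = 4), where a library held at most 10 Sox2 counts. Sox2 lies inside the gene Sox2ot, whose reads may be shared with it. Myc showed 25.4, 99.4, 87.1 and 77.2 FPKM in Cre+ EDL and 8.17, 14.0, 18.1 and 10 in Cre+ SOL, a log2 difference of 2.36 (standard error 0.20, adjusted p = 7.86e-06) where Cre- mice had 0.32 (adjusted p = 0.253). Klf4 showed 24.4, 59.9, 61.9 and 48.1 FPKM in Cre+ EDL and 17.3, 15.9, 22.7 and 12.6 in Cre+ SOL. It was the factor with the smallest muscle difference in Cre+ mice, 1.39 (standard error 0.22, adjusted p = 0.000574), and its SOL level differed between genotypes by 0.02 on the log2 scale (adjusted p = 0.984). Pou5f1 (Oct4) showed 17.5, 70.5, 76.2 and 57.7 FPKM in Cre+ EDL and 5.02, 9.62, 12.2 and 6.19 in Cre+ SOL, a difference of 2.58 (standard error 0.21, adjusted p = 7.51e-06), and no more than 5 counts in any Cre- library. The call of a difference between genotypes was lost for Sox2 on leaving out each of 2 of the 8 mice. So EDL and SOL of Cre+ mice differed in the level of OSKM as well as in fibre type, and the part of that level in the results below was not tested. Acta1, the gene that the Cre transgene is named after, was lower in Cre+ EDL (11420 ± 1908 FPKM) than in Cre+ SOL (27230 ± 5108 FPKM). The log2 difference was -1.32 (adjusted p = 0.000153), and Cre- mice had 19910 ± 1089 in EDL and 29940 ± 3797 in SOL (SD, n = 4). Acta1 was named after its values were seen, and its bearing on the factor levels was not tested.

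**Figure D1:**
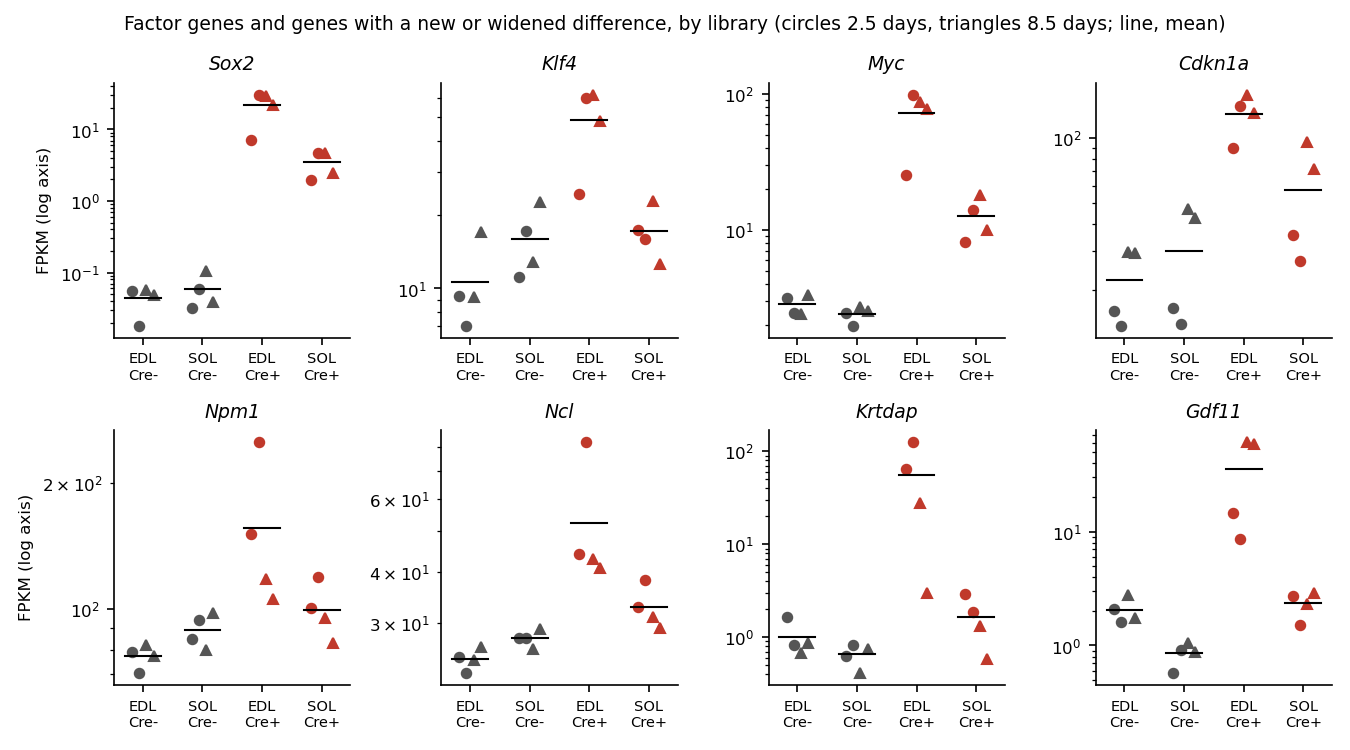
FPKM on log axes of Sox2, Klf4, Myc and of 5 genes discussed below in the 16 libraries, grouped by muscle and genotype (grey Cre-, red Cre+; circles 2.5 days, triangles 8.5 days; line, mean of 4). The Cre+ EDL points of Sox2, Klf4 and Myc lie above all Cre+ SOL points, and the lowest Cre+ EDL point in each is 2.5 days replicate 1.

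In Cre+ mice 2268 genes (14.8% of those tested) were higher in EDL and 2352 (15.3%) higher in SOL. In Cre- mice the figures were 1636 (10.6%) and 1771 (11.5%). In both genotypes 2105 genes were called in the same direction, 61.8% of the Cre- calls and 45.6% of the Cre+ calls, and 91.5% of the genes called in Cre- mice had the same sign in Cre+ mice. The test of the difference between genotypes (EDL over SOL in Cre+ minus EDL over SOL in Cre-) called 727 genes (4.73%) as shifted toward EDL and 471 (3.06%) as shifted toward SOL. These tests sort the genes into 5 groups. A difference was kept where it was called in both genotypes with one sign and the genotypes were not called different (1954 genes, 776 higher in EDL). It was narrowed where the Cre- difference was called and the change between genotypes ran against it (348 genes, 214 of them higher in EDL of Cre- mice), and 87 of these were still called in Cre+ mice. It was widened where the change ran with it (64 genes), new where it was called in Cre+ mice only and the genotypes differed (562 genes, 421 higher in EDL), and reversed where both genotypes were called with opposite signs (49 genes). Of the kept differences, 496 (25.4%) had a 95% interval of the genotype difference within 1.5-fold, and for the remaining kept genes the interval reached beyond that size. A further 1904 genes were called in Cre+ mice only and 992 in Cre- mice only without a called change between genotypes, and these are not counted as new or lost.

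**Figure D2:**
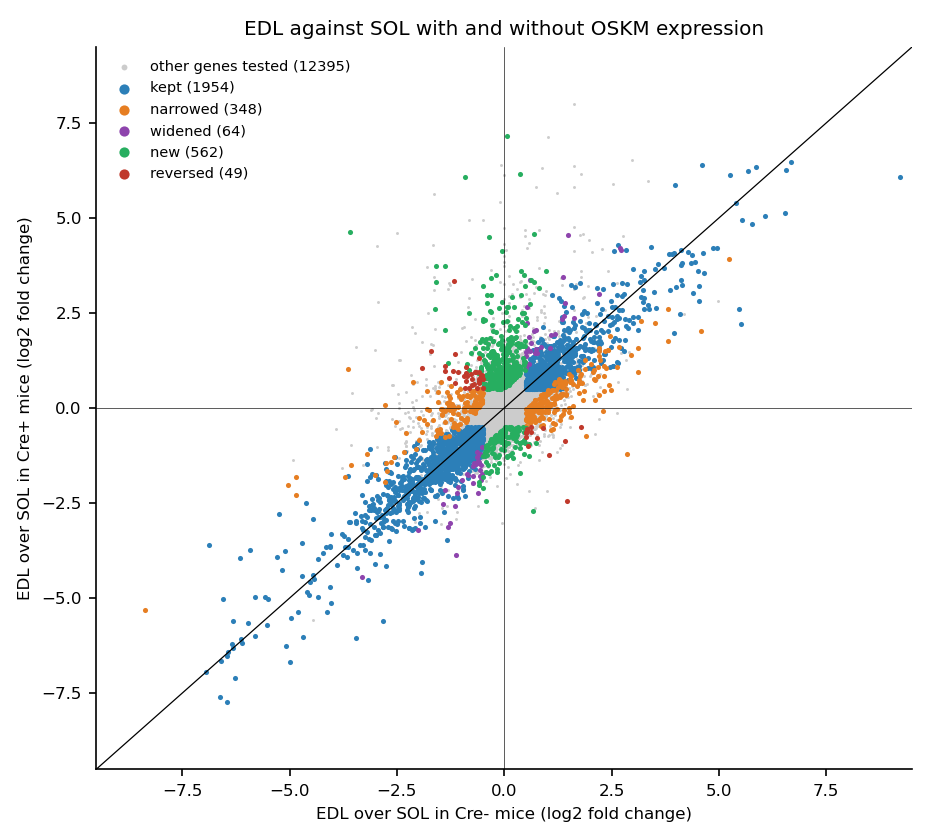
Log2 fold change of EDL over SOL in Cre- mice (x axis) and in Cre+ mice (y axis) for the 15372 genes tested, coloured by group; the diagonal marks equal differences. Kept genes (1954) follow the diagonal out to both ends, narrowed genes (348) lie between it and the horizontal axis or just across that axis, and new genes (562) stand along the vertical axis, mostly above 0.

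The changed genes had moved mainly in EDL. Of the 421 new differences with EDL higher, 409 had risen in EDL of Cre+ over Cre- mice and 43 in SOL, and of the 141 with SOL higher 124 had fallen in EDL and 2 in SOL. Among narrowed differences with EDL higher, 194 of 214 had fallen in EDL, and among those with SOL higher 115 of 134 had risen in EDL. The change between genotypes was larger in EDL than in SOL for 95.1% of narrowed and 98.9% of new genes. The share was 65.8% for kept genes and 68.5% for genes called in no test. Narrowed, widened, new and reversed genes were chosen on the change in EDL less that in SOL. Part of the higher shares, and of the counts of called changes in EDL here and below, follows from that choice. Over all genes tested, 3698 differed between genotypes in EDL and 225 in SOL. The direction of the calls depended on the scaling, because library size alone in place of TMM moved the median genotype difference of all genes from -0.04 to 0.12. The shifts toward EDL and SOL were then 1416 and 243 genes (85.4% toward EDL, against 60.7%). For reading the list medians below, the median EDL over SOL of all genes was -0.01 in Cre+ and 0 in Cre- mice. With library size alone it was 0.06 and -0.09. The number of called shifts also rested on single mice. It was 625 without the Cre+ mouse of 2.5 days replicate 1, 765 without the Cre+ mouse of 2.5 days replicate 2, 421 and 730 without the Cre- mice of 2.5 days replicates 1 and 2, and 638 without the Cre- mouse of 8.5 days replicate 2, in place of 1198 in all. Leaving out the same mice in the same order gave 296, 332, 228, 361 and 301 new differences. Narrowed differences numbered 210, 128, 230 and 206 without the Cre+ mouse of 2.5 days replicate 1, the Cre- mice of 2.5 days replicates 1 and 2 and the Cre- mouse of 8.5 days replicate 2, and widened ones 33, 18, 27 and 25, with 37 without the Cre+ mouse of 8.5 days replicate 1. Reversed differences numbered 29 without the Cre- mouse of 2.5 days replicate 1.

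The slow contractile programme was kept. Of its 17 genes, 16 were higher in SOL in each genotype (15.3% of all genes in Cre+ and 11.5% in Cre- mice), 16 fell in the kept group, and the median log2 difference was -5.03 in Cre+ and -5.08 in Cre- mice, against about 0 for all genes (-0.01 and 0). Myh7 stood at 6.52, 41.9, 38.5 and 37.4 FPKM in Cre+ EDL and at 2339, 3097, 3575 and 3196 in Cre+ SOL, and at 27.5, 4.82, 88.6 and 18.2 in Cre- EDL and 2573, 1848, 3572 and 3700 in Cre- SOL. The muscles did not overlap in either genotype, and the EDL library of Cre+ 2.5 days replicate 1 was the lowest of its group. The difference was -6.95 in Cre+ (standard error 0.59, adjusted p = 8.82e-06) and -6.94 in Cre- mice, with a 95% interval of -1.51 to 1.51 for the change between genotypes. Mhrt and Mir208b overlap Myh7 in the annotation.

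Tnni1 showed a similar difference, with means of 42.4 ± 19.5 FPKM in EDL and 3112 ± 548 in SOL of Cre+ mice (SD, n = 4) and a difference of -6.41 (standard error 0.54, adjusted p = 8.82e-06) against -6.44 in Cre- mice. Myl3 differed by -6.32 (adjusted p = 5.5e-06) and -6.33, with intervals of the change from -1.37 to 1.42 for Tnni1 and from -1.26 to 1.28 for Myl3. Tnnc1 (slow troponin C), Tpm3 (slow tropomyosin) and Myl2 (slow myosin regulatory light chain) lay at -6.21, -5.99 and -5.66 in Cre+ mice. The exception was Myom3, an M-band protein of slow and IIa fibres. It rose in EDL, from 6.11, 7.10, 14.1 and 11.0 FPKM in Cre- to 50.6, 42.8, 69.8 and 48.9 in Cre+ mice, with no overlap, while SOL held 133.8 ± 54.98 and 175.3 ± 20.7 FPKM (SD, n = 4). Its difference narrowed from -3.71 to -1.81 (change 1.90, standard error 0.25, adjusted p = 0.00226). Mybph, placed on the slow list, was the member higher in EDL in both genotypes.

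The fast contractile genes were kept in part. Of 16 genes, 15 were higher in EDL in Cre- and 12 in Cre+ mice (10.6% and 14.8% of all genes), 10 fell in the kept group and 2 in the narrowed group, and the median went from 1.75 to 1.30. Myh4 showed 6804, 2695, 6167 and 5123 FPKM in Cre+ EDL and 114, 83.0, 107 and 326 in Cre+ SOL. The muscles were apart in every mouse, and the difference was 5.13 (standard error 0.83, adjusted p = 0.000612) against 6.53 in Cre- mice, with a wide interval of -3.84 to 1.04 for the change. Actn3, the fast alpha-actinin, differed by 4.16 and 4.12, and Mylpf, the fast regulatory light chain, by 1.54 and 1.98. The IIx chain Myh1 was called in neither genotype (0.39 in Cre+, adjusted p = 0.26; 0.58 in Cre-, adjusted p = 0.129), and the IIa chain Myh2 was higher in SOL in both (-3.06 and -3.13); these chains were chosen with their values known.

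For Pvalb, the calcium buffer of fast fibres, and Casq1 a narrower difference was called over all 8 mice, and both calls rested on single mice. Pvalb fell in EDL from 11930, 15950, 13500 and 11220 FPKM in Cre- to 5932, 4791, 5164 and 7279 in Cre+ mice, while SOL held 407 ± 183 and 372 ± 102 FPKM (SD, n = 4). All 4 Cre+ EDL libraries lay below all 4 Cre- EDL libraries, and the difference went from 5.23 to 3.91 (change -1.31, standard error 0.31, adjusted p = 0.0295). The call was lost on leaving out each of 5 of the 8 mice (adjusted p from 0.0185 to 0.0789). Casq1 fell in EDL from 2181, 3185, 2127 and 2284 to 1649, 1455, 1758 and 1938 FPKM while SOL held 883 ± 70.3 and 896.5 ± 52.96 (SD, n = 4), and its difference went from 1.55 to 0.85 (change -0.70, adjusted p = 0.0366). That call was lost on leaving out each of 7 of the 8 mice, with changes from -0.80 to -0.61 and adjusted p from 0.0303 to 0.0888, and held without the Cre- mouse of 8.5 days replicate 1. Among the other abundant members, Tnni2 (fast troponin I) differed by 0.97 in Cre- mice and 0.24 in Cre+ mice (adjusted p = 0.217) and Tnnt3 (fast troponin T) by 1.04 and 0.49 (adjusted p = 0.0382, under the fold threshold). Neither change passed the test (adjusted p = 0.0531 and 0.179), while Tnnc2 (fast troponin C) stayed called at 0.99 and 0.52.

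**Figure D3:**
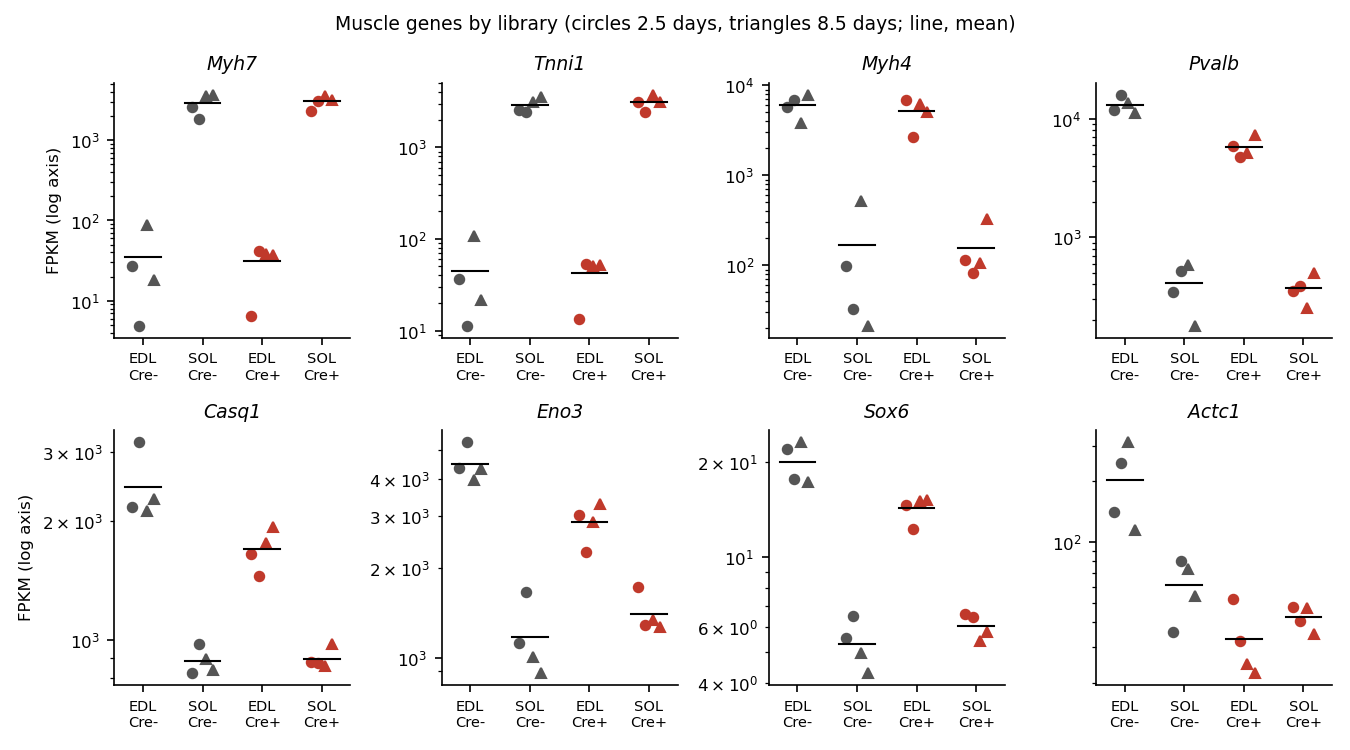
FPKM on log axes of 8 muscle genes in the 16 libraries, by muscle and genotype (grey Cre-, red Cre+; circles 2.5 days, triangles 8.5 days; line, mean of 4). Myh7, Tnni1 and Myh4 keep EDL and SOL points apart in both genotypes, the EDL points of Pvalb, Casq1, Eno3 and Sox6 move down toward SOL in Cre+ mice, and the Cre+ EDL points of Actc1 fall to about the SOL level.

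Fast and slow genes were also chosen on other mice. The 4 Cre- libraries of 5.5 days named 759 genes higher in EDL and 956 higher in SOL (adjusted p under 0.05, absolute log2 fold change over 1). For the fast genes the median EDL over SOL log2 difference within a mouse was 1.03, 0.70, 0.87 and 0.92 in the Cre+ mice and 1.38, 1.28, 1.21 and 1.25 in the Cre- mice. The genotypes did not overlap, and the mean difference was -0.40. For the slow genes it was -1.21, -1.37, -1.25 and -1.14 in Cre+ and -1.39, -1.23, -1.21 and -1.40 in Cre- mice, which overlapped. This contrast between fast and slow genes depended on the scaling. When counts were scaled to library size only, both lists had smaller differences in Cre+ mice, by similar amounts. Of the fast genes 78.1% had a smaller difference in Cre+ than in Cre- mice, with 127 called as narrower and 18 as wider. Of the slow genes 55.1% did, with 85 narrower and 16 wider. Narrower means a shift toward SOL for fast genes and toward EDL for slow genes. Of all genes tested, 3.06% were called as shifted toward SOL and 4.73% toward EDL. The median change of all genes was -0.04, which by itself makes fast differences smaller and slow ones larger.

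Glycolysis and glycogen genes, the fuel supply of fast fibres, held 13 genes shifted toward SOL. Of 37 genes, 24 were higher in EDL in Cre- and 20 in Cre+ mice (10.6% and 14.8% of all genes). By edgeR, 13 were called as shifted toward SOL and 0 toward EDL (3.06% and 4.73% of all genes). That test gave 4026 genes of all those tested an unadjusted p under 0.05. With library size alone 11 shifted toward SOL and 3 toward EDL. The list median was 1.27 in Cre- and 0.63 in Cre+ mice. Within mice it was 0.68, 0.35, 0.52 and 0.83 in Cre+ and 1.19, 1.39, 0.96 and 1.35 in Cre- mice, without overlap. Eno3, the muscle enolase, fell in EDL from 4354, 5322, 3960 and 4328 FPKM to 3026, 2271, 2854 and 3288, and its difference went from 2.07 to 0.95 (change -1.11, standard error 0.20, adjusted p = 0.0113). Pgam2, the muscle phosphoglycerate mutase, went from 1.30 to 0.63 (change -0.68, adjusted p = 0.024; lost on leaving out each of 6 of the 8 mice) and was lower in EDL of Cre+ mice, with 1823, 1459, 1723 and 1933 FPKM against 1914, 2785, 1909 and 2390, groups that overlapped.

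Further narrowed members, named after their values were seen, were Gpd1 (glycerol phosphate shuttle), Ldha, Pgk1, Phka1, Phkb and Phkg1 (phosphorylase kinase subunits), Slc16a3 (lactate export) and Tpi1. Gpd1 fell in EDL from 361.2 ± 69.3 to 122.3 ± 23.1 FPKM with SOL at 44.3 ± 7.77 and 38.9 ± 5.79 (SD, n = 4), and its difference changed by -1.54 (adjusted p = 0.00348). Aldoa and Gapdh fell in the kept group, at 1.02 and 0.93 in Cre+ against 1.69 and 1.21 in Cre- mice. For Aldoa the change of -0.67 (interval -1.11 to -0.23) missed the threshold (adjusted p = 0.064), so an unchanged difference was not shown. Its ratios in Cre+ mice all lay below those in Cre- mice, and it had fallen in EDL (-0.91, adjusted p = 0.00068). The Gapdh change was -0.28 (interval -0.63 to 0.08, adjusted p = 0.307). The glucose transporter Slc2a4 and hexokinase Hk2 gained a difference toward SOL. Slc2a4 stood at 161, 130, 115 and 157 FPKM in Cre+ EDL and 228, 231, 180 and 191 in Cre+ SOL, without overlap, where Cre- mice had 260.7 ± 35.9 and 237.2 ± 16.6 (SD, n = 4; change -0.85, adjusted p = 0.0147).

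Genes of calcium handling and membrane excitation held changes in both directions. Of 32 genes, 17 were higher in EDL in Cre- and 11 in Cre+ mice (10.6% and 14.8% of all genes), 6 were called as shifted toward SOL and 2 toward EDL (3.06% and 4.73% of all genes; 3 and 4 members with library size alone), and the list median within mice was 0.30, 0.04, 0.28 and 0.37 in Cre+ and 0.43, 0.58, 0.43 and 0.65 in Cre- mice, without overlap. The chloride channel Clcn1, which steadies the resting membrane of the fibre, fell in EDL from 70.4, 66.0, 66.2 and 58.3 FPKM to 47.9, 27.1, 48.3 and 51.3 while SOL held 35.7 ± 3.12 and 38.7 ± 1.24 (SD, n = 4). Its muscle difference of 0.96 in Cre- mice was 0.06 in Cre+ mice (adjusted p = 0.758; change -0.90, adjusted p = 0.0295). Jph2, which tethers the calcium store to the surface membrane, went from 1.20 to 0.31 (change -0.89, adjusted p = 0.0396). Cacnb1, a subunit of the voltage sensor, ran the other way. It rose in both muscles and further in EDL, from 57.5 ± 1.95 to 157.3 ± 13.9 FPKM, against 50 ± 1.25 to 80.7 ± 8.93 in SOL (SD, n = 4), which made a new difference of 0.90 (change 0.60, adjusted p = 0.0168). The abundant members Srl, Hrc and Jsrp1 had no called change between genotypes; Clcn1, Jph2 and Cacnb1 were chosen with their values known.

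The fatty acid oxidation difference was kept, and more oxidative phosphorylation genes were called higher in SOL in Cre+ than in Cre- mice. Of 35 fatty acid oxidation genes 29 were higher in SOL in Cre+ and 30 in Cre- mice (15.3% and 11.5% of all genes). Of these 35, 30 were in the kept group and 0 had a called change between genotypes by edgeR (1, toward EDL, with library size alone). The median was -1.11 in both genotypes. Fabp3, the fatty acid carrier of muscle, differed by -2.55 and -2.71. Of 78 oxidative phosphorylation genes 50 were higher in SOL in Cre+ mice (15.3% of all genes) and 1 in Cre- mice (11.5%). The median was -0.56 in Cre+ and -0.12 in Cre- mice, and within mice it was -0.63, -0.58, -0.63 and -0.34 in Cre+ and -0.27, -0.39, 0.11 and 0.04 in Cre- mice, which overlapped. A change between genotypes was called for 6 of the 78, all toward SOL (3.06% of all genes). With library size alone the counts were 33 and 7 for SOL higher and 0 for the change, while the median change less that of all genes stayed at -0.36. Cox6a2, the muscle form of a cytochrome oxidase subunit, stood at 827, 784, 749 and 1000 FPKM in Cre+ EDL and 1505, 1304, 1603 and 1848 in Cre+ SOL, and at 1424, 1362, 1457 and 1517 in Cre- EDL and 2034, 1957, 1925 and 2168 in Cre- SOL. The muscles were apart in both genotypes and further apart in Cre+ mice (-0.96 against -0.40, change -0.57, standard error 0.13, adjusted p = 0.0277), a call lost on leaving out each of 5 of the 8 mice; Itgad overlaps Cox6a2. Atp5o, Cyc1 and Ndufs1, named after their values were seen, were the other members with a new difference, of -0.72, -0.89 and -0.62.

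**Figure D4:**
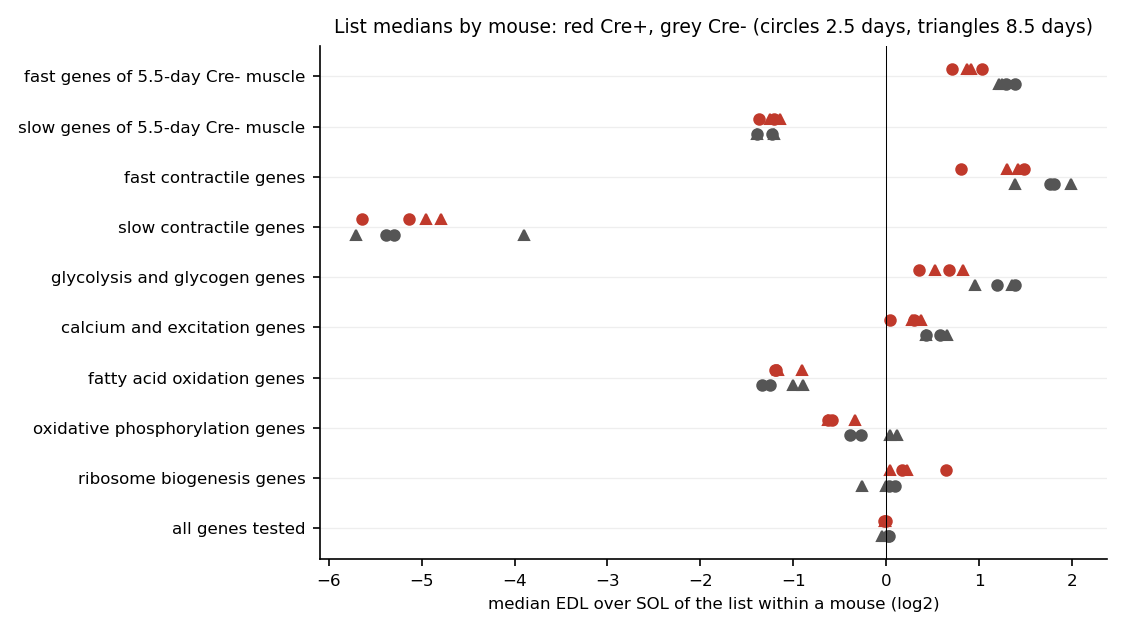
Median EDL over SOL log2 difference of each gene list within each of the 8 mice (red Cre+, grey Cre-; circles 2.5 days, triangles 8.5 days; vertical line at 0). For the fast genes of 5.5-day Cre- muscle, for glycolysis and glycogen genes and for calcium and excitation genes the 4 Cre+ points lie below the 4 Cre- points, while the slow contractile and fatty acid oxidation points overlap.

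Among 41 regulators of fibre type, 12 were higher in EDL and 12 in SOL in each genotype (14.8% and 15.3% of all genes in Cre+ mice, 10.6% and 11.5% in Cre- mice), 17 differences were kept and 7 had a called change between genotypes, 2 toward EDL and 5 toward SOL (4.73% and 3.06% of all genes). Sox6, which represses slow genes in fast fibres, fell in EDL from 22.1, 17.7, 23.2 and 17.3 FPKM to 14.6, 12.3, 15 and 15.2, with no overlap. SOL held 5.32 ± 0.949 and 6.07 ± 0.568 FPKM (SD, n = 4), and the difference narrowed from 2.01 to 1.17 (change -0.85, standard error 0.18, adjusted p = 0.0196). Tbx15, a factor of fast glycolytic fibres, went from 1.35 to 0.56 (change -0.79, adjusted p = 0.0427) and Eya1, a transcriptional co-activator of fast fibres, from 1.30 to 0.62 (change -0.68, adjusted p = 0.0158). Both had fallen in EDL, and the Tbx15 call was lost on leaving out each of 6 of the 8 mice and the Eya1 call on leaving out 1. Six4 fell in EDL to 2.78, 2.31, 2.61 and 2.54 FPKM against 3.57, 3.07, 5.20 and 3.62 in Cre- mice, and was newly called higher in SOL (-1.27 against -0.46, change -0.82, adjusted p = 0.0303), a call that was lost on leaving out each of 6 of the 8 mice. Ppp3ca, the catalytic subunit of calcineurin, rose in EDL from 44.3, 47.2, 51.2 and 52.7 to 94.3, 102, 107 and 107 FPKM while SOL held 24.9 ± 2.32 and 32.5 ± 2.42 (SD, n = 4). Its difference was 1.06 in Cre- and 1.59 in Cre+ mice (change 0.53, standard error 0.14, adjusted p = 0.0478). The call of that change was lost on leaving out each of 7 of the 8 mice, with changes from 0.45 to 0.59 and adjusted p from 0.0494 to 0.173, and held without the Cre+ mouse of 2.5 days replicate 2. For Mef2d and the thyroid hormone receptor gene Thra the change was called (0.56 toward EDL, adjusted p = 0.029, and -0.57 toward SOL, adjusted p = 0.0149) although neither single-genotype difference passed both thresholds; Thra shares its locus with Nr1d1 on the other strand, and Mef2d overlaps a non-coding gene. On leaving out single mice the Mef2d call was lost for 6 of the 8, the Sox6 call for 3 and the Thra call for 1. Mef2c, Lmcd1 and Rcan1, the other abundant members, had no called change between genotypes.

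Of 14 genes of developing muscle, 8 were higher in SOL in Cre+ and 7 in Cre- mice (15.3% and 11.5% of all genes), and 6 were kept. Actc1 was reversed. It stood at 140, 245, 313 and 114 FPKM in Cre- EDL and 35.9, 80.4, 73.7 and 53.7 in Cre- SOL, and at 52.0, 32.4, 24.8 and 22.3 in Cre+ EDL and 47.4, 40.7, 46.8 and 34.8 in Cre+ SOL. EDL was above SOL in each Cre- mouse and below it in 3 of 4 Cre+ mice, whose EDL and SOL libraries overlapped. The Cre+ difference lay just past the fold threshold of 0.5, with -0.17 at 2.5 days and -0.84 at 8.5 days. The difference went from 1.78 (adjusted p = 3.1e-05) to -0.51 (adjusted p = 0.0383), a change of -2.29 (standard error 0.25, adjusted p = 0.00138), with the fall in EDL called (-2.94) and that in SOL not (-0.62, adjusted p = 0.373). Ncam1, the adhesion molecule that spreads over fibres without nerve contact, rose in EDL from 1.60, 2.17, 1.89 and 2.15 to 19.5, 32.4, 12.4 and 7.07 FPKM while SOL held 6 ± 2.2 and 9.23 ± 2.23 (SD, n = 4). Its difference of -1.47 became 0.68 (adjusted p = 0.154), a change of 2.15 (adjusted p = 0.0307) whose call was lost on leaving out each of 4 of the 8 mice, and the Cre+ ratios were 1.05 and 2.19 at 2.5 days but -0.03 and -0.42 at 8.5 days. Igf2, a growth factor of developing muscle, was higher in SOL in Cre+ mice (-0.90 against -0.22, change -0.68, adjusted p = 0.0384), with the call of the change lost on leaving out each of 6 of the 8 mice. Summed satellite cell markers, mostly Des, which fibres make too, lay between 1212 and 1924 FPKM in Cre+ EDL and between 836.5 and 1084 in Cre- EDL, without overlap, and between 1814 and 1979 and between 1605 and 1956 in SOL. The sum did not stand for the list. Over its 8 genes the median log2 difference of Cre+ over Cre- mice was -0.13 in EDL and -0.13 in SOL. A change of the muscle difference was called for 0 of them. The part of satellite cells in these differences was not tested.

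The other narrowed genes with the largest changes were mixed in role. With EDL higher in Cre- mice they included Slc25a25, a mitochondrial ATP-Mg carrier, which fell in EDL from 64.3, 101, 73.6 and 181 to 27.1, 9.03, 21.7 and 11.1 FPKM, so that 2.30 in Cre- became -0.08 in Cre+ mice (change -2.38, standard error 0.36, adjusted p = 0.00461). Zfp503, Arrdc2 and AW551984 also fell in EDL, with changes of -1.88, -1.88 and -2.63. Katnal2, with at most 4 counts in a Cre- SOL library, rose in both muscles and stayed called at 2.02 in Cre+ mice. With SOL higher in Cre- mice, Cidea, a lipid droplet protein of fat and oxidative tissue, rose in EDL from 0.646, 0.834, 0.599 and 0.438 to 4.68, 3.59, 3.88 and 3.59 FPKM while SOL held 6.08 ± 0.601 and 8.86 ± 2.37 (SD, n = 4). Its difference narrowed from -3.19 to -1.21 (change 1.98, standard error 0.21, adjusted p = 0.00101). Adipocyte markers, summed, held 288 to 449 FPKM in Cre+ EDL and 257 to 377 in Cre- EDL, and their part in this difference was not tested. Arhgdig and D630024D03Rik rose in EDL too, with changes of 2.17 and 2.99. Slc22a2 had no more than 3 counts in any EDL library, so its change rests on SOL, at 3.55, 4.61, 1.17 and 8.13 FPKM in Cre- and 2.90, 0.390, 0.823 and 0.284 in Cre+ mice, which overlapped. The call was lost on leaving out each of 7 of the 8 mice for Slc22a2 and Katnal2, 6 for D630024D03Rik, 5 for Arhgdig, 3 for AW551984 and 1 for Arrdc2.

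The largest new differences with EDL higher included transcripts known from other tissues. Phox2a, which overlaps Inppl1 and is a homeodomain factor of autonomic neurons, stood at 1.54, 10.1, 2.84 and 2.88 FPKM in Cre+ EDL and at 0.0673, 0.608, 0.204 and 0.100 in Cre+ SOL, without overlap, and had at most 11 counts in a Cre- library. Its new difference was 4.13 (standard error 0.33, adjusted p = 6.46e-06; change 4.18, adjusted p = 0.00699). Krtdap, a protein of differentiating keratinocytes, stood at 64.8, 127, 28.0 and 3.01 FPKM in Cre+ EDL against 1.66 ± 0.969 in Cre+ SOL (SD, n = 4), and Arhgap36 at 24.6, 30.2, 17.1 and 1.61 against 0.607, 0.717, 6.14 and 0.226. Both were lower in the EDL libraries of 8.5 days than in those of 2.5 days. P2rx2, an ATP-gated ion channel, reached 7.47 and 8.54 FPKM in EDL at 2.5 days and 0.178 and 0.531 at 8.5 days, with at most 3 counts in a Cre- library, so that no fold against Cre- mice is given. The call of the change was lost on leaving out each of 4 of the 8 mice for P2rx2 and on leaving out 1 for Arhgap36. Of 19 epithelial genes tested (26 listed), 6 were higher in EDL in Cre+ and 1 in Cre- mice (14.8% and 10.6% of all genes). Evpl, a cornified envelope protein, was the new one among them (change 4.196, adjusted p = 0.0158). It stood at 9.17, 18.2, 3.08 and 1.66 FPKM in Cre+ EDL against 0.762, 0.964, 1.37 and 0.543 in Cre+ SOL. In the Cre- libraries of 5.5 days Evpl was among the genes chosen as higher in SOL. Krt7 showed 35.6 FPKM in the EDL library of Cre+ 2.5 days replicate 2 and between 4.07 and 6.201 in the other Cre+ EDL libraries, and its change was not called (adjusted p = 0.136).

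Few growth and stress genes had a called change between genotypes. Of 52 ribosome biogenesis genes, 14 were higher in EDL in Cre+ mice (14.8% of all genes) and 1 in Cre- mice (10.6%), with a median of 0.28 against -0.03. Per mouse the medians were 0.17, 0.64, 0.04 and 0.22 against 0.03, 0.09, -0.26 and 0, which overlapped. The change toward EDL was called for 2 (4.73% of all genes), Ncl and Npm1, nucleolar proteins of ribosome assembly (8 with library size alone). The calls were lost on leaving out each of 6 and each of 5 of the 8 mice. Npm1 stood at 151, 251, 118 and 106 FPKM in Cre+ EDL against 101, 120, 95.3 and 83.1 in Cre+ SOL (change 0.62, adjusted p = 0.0452), and Ncl, which hosts small nucleolar RNAs, at 44.0, 82.3, 42.9 and 40.7 against 32.8, 38.3, 31.1 and 29.2 (change 0.625, adjusted p = 0.0329). The Cre+ EDL library of 2.5 days replicate 2 was the highest in both. Of 31 p53 targets 7 were higher in EDL and 4 in SOL in Cre+ mice (14.8% and 15.3% of all genes) against 5 and 3 in Cre- mice (10.6% and 11.5%), and the single called change, toward EDL (4.73% of all genes), was Cdkn1a, which encodes the cell cycle inhibitor p21. It stood at 89.2, 139, 158 and 130 FPKM in Cre+ EDL and 35.7, 26.9, 95.6 and 72.1 in Cre+ SOL, where Cre- mice had 22.2 ± 8.65 and 30.1 ± 17.3 (SD, n = 4). EDL was above SOL in each Cre+ mouse, the new difference was 1.24 (standard error 0.23, adjusted p = 0.00142), and Cdkn1a had risen in both muscles, by 2.35 in EDL and 0.88 in SOL. The call of its change was lost on leaving out each of 3 of the 8 mice. Wnt4, a secreted ligand of myofibres named after its values were seen, stayed higher in EDL (1.22 in Cre+, 2.62 in Cre- mice), with a change that did not pass the test (-1.40, adjusted p = 0.052), and it differed between genotypes by -2.52 in EDL and -1.23 in SOL.

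Of the 141 new differences with SOL higher, 124 came with a called fall in EDL, which their choice favours. Dupd1, a dual-specificity phosphatase of skeletal muscle, fell in EDL from 30.1, 57.6, 37.5 and 22.5 to 4.82, 2.14, 1.29 and 2.02 FPKM while SOL held 23.9 ± 6.38 and 14.98 ± 4.43 (SD, n = 4). The muscles did not overlap in Cre+ mice and overlapped in Cre- mice (-2.71 against 0.68, change -3.39, standard error 0.47, adjusted p = 0.00292). Tfrc, the transferrin receptor, Mettl21e, a muscle methyltransferase, Agbl1 and the linker histone gene Hist1h1e also fell in EDL, with changes of -1.68, -2.09, -1.84 and -2.02. The calls of Tfrc and Mettl21e were lost on leaving out each of 5 of the 8 mice.

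Widened differences with EDL higher came from genes that rose in EDL in 32 of 33 cases, which their choice favours. Gdf11, a secreted relative of myostatin, stood at 14.5, 8.65, 61.4 and 58.4 FPKM in Cre+ EDL and 2.74, 1.51, 2.30 and 2.90 in Cre+ SOL, against 2.06 ± 0.524 and 0.854 ± 0.205 in Cre- mice (SD, n = 4). The difference went from 1.36 to 3.44 (change 2.08, standard error 0.52, adjusted p = 0.0346), and the call of the change was lost on leaving out each of 6 of the 8 mice. In Cre+ mice it was 4.48 at 8.5 days and 2.39 at 2.5 days (adjusted p of the day difference 0.0136 with the block per mouse), where day and sex cannot be told apart and no gene passed without the block. Cfap52, a ciliary protein, went from 0.60 to 3.38, Kcnk5, a potassium channel, from 0.53 to 2.67, Prr13 from 0.53 to 2.25, and Fam83g, which overlaps Slc5a10, from 1.48 to 4.56. On the SOL side Slc38a3, a glutamine transporter, fell in both muscles and further in EDL, to 20.8, 15.5, 17.0 and 21.8 FPKM against 49.8, 58.4, 71.4 and 87.8 in Cre+ SOL (-1.88 against -0.55, change -1.33, adjusted p = 0.00747). Scn3b, a sodium channel subunit, Sctr, the secretin receptor, and Hpn, a membrane protease, had fallen in EDL, with changes of -1.83, -1.75 and -1.23. Mir6935 lies within Actg1, and its counts cannot be told apart from those of its host.

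All 49 reversed differences had a called change in EDL, a fall for 14 and a rise for 35. The choice of reversed genes favours such a change. Of all 15372 genes tested, 3698 had a called change in EDL. Aldh1b1, a mitochondrial aldehyde dehydrogenase, rose in both muscles, from 0.739, 0.601, 0.760 and 0.746 to 57.4, 35.6, 84.9 and 73.8 FPKM in EDL and from 2.56, 3.53, 2.03 and 3.50 to 35.6, 15.9, 47.5 and 21.4 in SOL. EDL was below SOL in each Cre- mouse and above it in each Cre+ mouse (-1.91 to 1.05, change 2.96, standard error 0.27, adjusted p = 0.000553). Pcbd1, a pterin dehydratase and cofactor of Hnf1, went from -1.70 to 1.51 (change 3.20, adjusted p = 0.000905), and Osbpl3, an oxysterol-binding protein, from -1.14 to 1.43 (change 2.57, adjusted p = 0.00018). Kcng4, a modifier subunit of potassium channels, fell in both muscles, with a Cre+ ratio near 0 at 8.5 days replicate 1 (1.42 to -0.88, change -2.30, adjusted p = 0.0134).

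**Figure D5:**
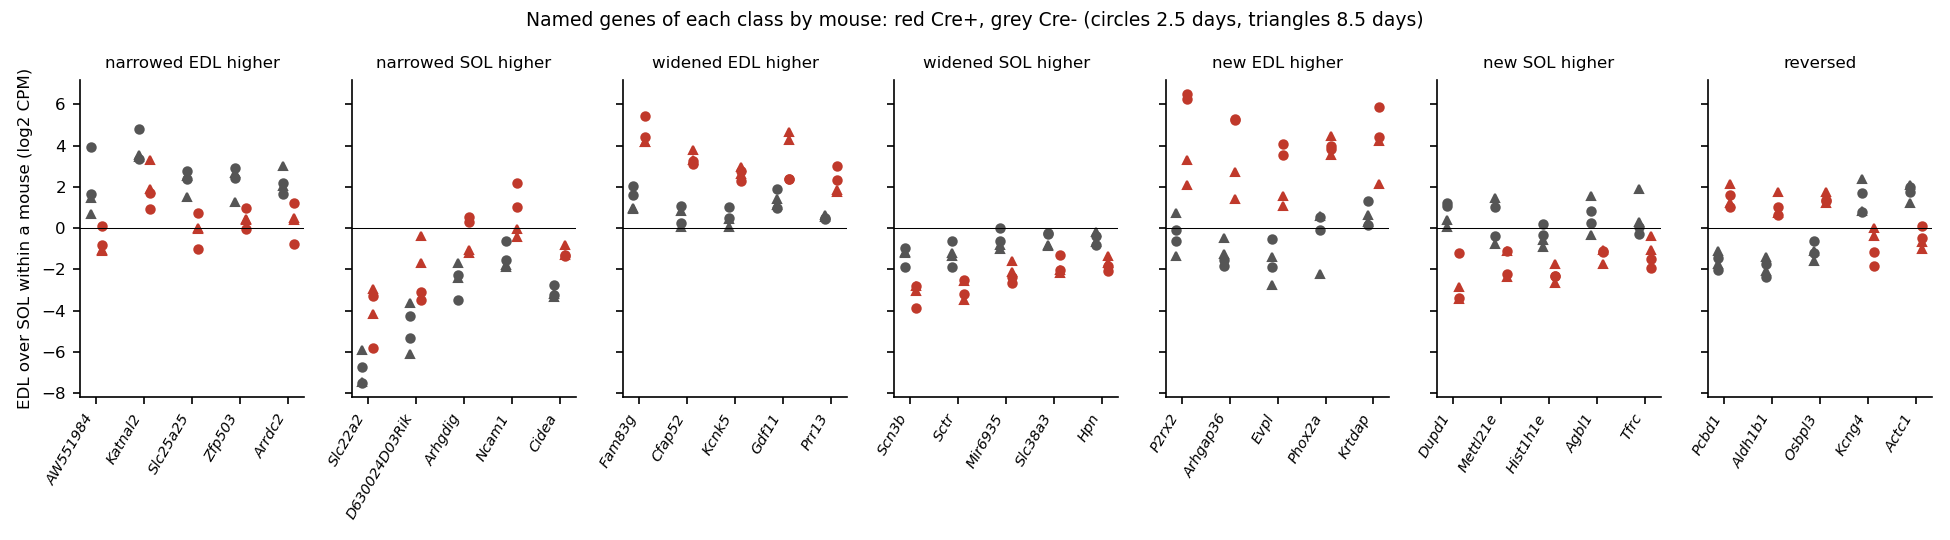
EDL over SOL log2 ratio within each mouse for the genes named by rule in each group of changed differences (red Cre+, grey Cre-; circles 2.5 days, triangles 8.5 days; line at 0). In each gene the 4 Cre+ points lie beyond the 4 Cre- points, as the choice of genes required.

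The largest kept differences outside the contractile lists had unlike functions. Higher in EDL were Epyc, an extracellular matrix proteoglycan (3.32, 1.79, 6.22 and 5.80 FPKM in Cre+ EDL, at most 0.157 in Cre+ SOL; 6.25 against 6.58), Cntnap2, a neurexin-like adhesion protein (4.94 against 5.54), Tspan8 (4.22 against 4.96) and Cyp4f39 (5.06 against 6.08). Cyp4f39 reached 103 FPKM in Cre+ EDL of 2.5 days replicate 2 and between 9.23 and 22.5 in the other 3. Higher in SOL were Tecrl, an enoyl reductase-like protein of heart and slow muscle (-6.52 against -6.46), and Ces5a, a carboxylesterase with at most 4 counts in an EDL library and 2.81 ± 1.26 FPKM in Cre+ SOL (SD, n = 4).

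The muscle difference of Cre+ mice differed between days for 74 genes (0.481%), 10 more toward EDL at 8.5 days and 64 more toward SOL. Day and sex cannot be told apart here, and without the replicate block edgeR called 0 genes (1414 at an unadjusted p under 0.05), so the day differences below hold only for the fit with the block. The 3 largest of the latter, Cnfn, a cornified envelope protein, Vsig8, and Msln, a mesothelial surface protein, were present in EDL at 2.5 days and lower at 8.5 days. Cnfn stood at 42.2 and 101 FPKM in Cre+ EDL at 2.5 days and at 4.03 and 0.5004 at 8.5 days, with SOL between 0.281 and 1.10 (day difference -5.00, adjusted p = 0.00784). Msln stood at 24.3, 17.4, 7.62 and 0.342 in EDL, and its SOL library of 8.5 days replicate 1 held 5.13 where the other 3 held 0.566 or less. Toward EDL, besides Gdf11, were the clock repressor Ciart (3.002, adjusted p = 0.00541) and Pfkfb3, an activator of glycolytic flux (2.00, adjusted p = 0.023). For Ciart it was SOL that changed, from 14.6 and 18.8 FPKM at 2.5 days to 1.47 and 1.44 at 8.5 days, and Cre- SOL went from 11.3 and 21.1 to 1.11 and 3.23. The time of day of each dissection is not given in the sources used here.

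The distance between EDL and SOL of one mouse over all genes, on log2(FPKM + 5), was 54.5, 64.3, 48.8 and 46.8 in Cre+ mice and 48.5, 50.5, 48.8 and 52.3 in Cre- mice. The groups overlapped (53.6 ± 7.83 against 50.03 ± 1.73, SD, n = 4; exact two-sided permutation test, p = 0.457, smallest possible 0.0286). Without the Cre+ mouse of 2.5 days replicate 2 the difference in means was 0.0297 in place of 3.59.

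The marker lists of other cells differed in how many members were called between the muscles. Of all genes tested, 15.3% were higher in SOL and 14.8% in EDL in Cre+ mice, and 11.5% and 10.6% in Cre- mice. Adipocyte markers were higher in SOL in both genotypes (9 of 9 tested, summed 633 to 957 FPKM in SOL of Cre+ and 503 to 1064 in SOL of Cre- mice), as were 6 of 8 satellite cell markers, among them Pax7 (1.56 ± 0.174 FPKM in EDL and 2.12 ± 0.303 in SOL of Cre+ mice, SD, n = 4). Endothelial markers were higher in SOL for 7 of 11 in Cre+ and 1 of 11 in Cre- mice, with summed levels of 143 to 187 FPKM in EDL and 208 to 281 in SOL of Cre+ mice and of 171 to 188 and 206 to 262 in Cre- mice. Schwann cell markers were higher in EDL for 8 of 10 in Cre- and 2 of 10 in Cre+ mice (157 to 235 in EDL and 92.1 to 138 in SOL of Cre+ mice, 132 to 248 and 73.3 to 205 in Cre- mice). Liver transcripts were higher in SOL for 11 of 15 in Cre- and 3 of 15 in Cre+ mice, with 13.6 to 219 summed FPKM in Cre- SOL. Erythroid genes were higher in EDL for 7 of 8 in Cre+ and 4 of 8 in Cre- mice (490 to 1569 and 572 to 1738 summed FPKM in EDL). Macrophage markers were called for 0 of 12 in Cre+ mice and 1 of 12 in Cre- mice, and neutrophil markers for 0 of 6 in both, by edgeR. A change between genotypes was called for 1 endothelial gene and 1 erythroid gene, both toward SOL (3.06% of all genes). The Schwann cell, liver, adipocyte, satellite cell, macrophage, neutrophil, fibroblast (10 genes) and tendon (8 genes) lists had none. The unlike counts of Schwann cell markers and liver transcripts in the 2 genotypes thus came without a called change. The part of these cells in the muscle differences was not tested.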

How the data were processed

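Poly(A) RNA of whole EDL and SOL muscles was sequenced (stranded, single-end), and STAR 2.5.3a was used by the authors for alignment (mm10), and the deposited values are raw counts per RefSeq gene, made with HOMER from unique reads on exons; the submitters' notes also name FastQC 0.11.2. FPKM was computed here from these counts and the deposited gene lengths. The 24537 genes were filtered with filterByExpr (minimum count 10), which left 15372, and scaled by TMM. The edgeR 4.0.16 quasi-likelihood test (R 4.3.3, limma 3.58.1) was fitted to 16 libraries with a block per mouse and a muscle effect in each genotype (6 residual degrees of freedom); genotype differences within a muscle came from the fit without the block. A gene was called when its p value, adjusted after Benjamini and Hochberg, was under 0.05 and its log2 fold change exceeded 0.5 in size.

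The labels number replicates but do not say that same-numbered EDL and SOL samples are one mouse. Their deviations from the group means correlated at 0.171 to 0.45 in all 6 groups, so the numbers were taken to pair the samples. Without the replicate block 1377 genes in place of 1198 had a called change between genotypes, and 0 in place of 74 differed between days.

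The 5.5-day Cre- libraries were used only to choose fast and slow genes. The part of the series and the gene lists were chosen with earlier results of these data known. Named genes were the OSKM factors, the 4 most abundant members of each list, contractile and regulator genes with a called change, the 5 largest of each group and direction and the 3 largest day differences each way (mean of at least 1 FPKM, 1 copy in the annotation, and for changed groups all 4 Cre+ ratios beyond all 4 Cre- ratios). Scripts were tested on simulated data. A count floor of 3 equals 0.0566 to 0.0831 CPM, for counting error only. Alternatives were DESeq2 1.42.0, RLE size factors, library size alone, other thresholds, single days and leaving out each mouse. Promoters from RefSeq matched 76% of the genes tested, so no motif check over gene groups was made. Results for some genes are not reported here.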

Additional observations from a re-analysis of the deposited data

Results flagged for a closer look

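In 31 of 416 groups of 4 libraries (7.45%) 1 library stood apart from the other 3 by Dixon's test, where chance gives about 1 in 20; it was the highest in 22 and the lowest in 9. In Cre- EDL of 8.5 days replicate 2 this held for Tnni2 at 13060 FPKM and Hpn at 3.274 FPKM. In Cre- SOL of 8.5 days replicate 2 this held for Myl2 at 13960 FPKM. In Cre+ EDL of 2.5 days replicate 1 this held for Tnnc1 at 38.77 FPKM, Tbx15 at 100.4 FPKM, Myh7 at 6.521 FPKM and Tnni1 at 13.24 FPKM. In Cre- EDL of 8.5 days replicate 1 this held for Mef2c at 127.7 FPKM and Tfrc at 92.01 FPKM. In Cre+ EDL of 2.5 days replicate 2 this held for Srl at 427.5 FPKM, Ncl at 82.32 FPKM, Krt7 at 35.56 FPKM, Phox2a at 10.07 FPKM, Cyp4f39 at 103 FPKM and Cntnap2 at 2.378 FPKM. In Cre+ SOL of 2.5 days replicate 2 this held for Srl at 391.5 FPKM. In Cre- SOL of 2.5 days replicate 1 this held for Srl at 424.8 FPKM and Cnfn at 0.03613 FPKM. In Cre+ SOL of 2.5 days replicate 1 this held for Eno3 at 1731 FPKM. In Cre+ SOL of 8.5 days replicate 1 this held for Krt7 at 1.964 FPKM, Arhgap36 at 6.139 FPKM and Msln at 5.132 FPKM. In Cre+ SOL of 8.5 days replicate 2 this held for Casq1 at 975.1 FPKM and Myh4 at 326.4 FPKM. In Cre- EDL of 2.5 days replicate 2 this held for Casq1 at 3185 FPKM and Aldh1b1 at 0.6009 FPKM. In Cre- SOL of 2.5 days replicate 2 this held for Ppp3ca at 28.39 FPKM and Mettl21e at 1.935 FPKM. In Cre+ EDL of 8.5 days replicate 1 this held for Fam83g at 7.843 FPKM. In Cre- SOL of 8.5 days replicate 1 this held for Myh4 at 521.3 FPKM and Pfkfb3 at 14.1 FPKM.

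The EDL over SOL log2 difference was called different between Cre+ and Cre- mice for named genes in both directions. Toward EDL the changes were P2rx2 6.99, Arhgap36 5.32, Evpl 4.196, Phox2a 4.18, Krtdap 3.88, Pcbd1 3.20, Fam83g 3.08, Slc22a2 3.07, D630024D03Rik 2.99, Aldh1b1 2.96, Sox2 2.82, Cfap52 2.78, Osbpl3 2.57, Arhgdig 2.17, Ncam1 2.15, Kcnk5 2.13, Gdf11 2.08, Myc 2.03, Cidea 1.98, Myom3 1.90, Klf4 1.90, Prr13 1.72, Cdkn1a 1.47, Ncl 0.625, Npm1 0.62, Mef2d 0.56 and Ppp3ca 0.53. Toward SOL they were Dupd1 -3.39, AW551984 -2.63, Katnal2 -2.57, Slc25a25 -2.38, Kcng4 -2.30, Actc1 -2.29, Mettl21e -2.09, Hist1h1e -2.02, Zfp503 -1.88, Arrdc2 -1.88, Agbl1 -1.84, Scn3b -1.83, Sctr -1.75, Tfrc -1.68, Mir6935 -1.62, Slc38a3 -1.33, Pvalb -1.31, Hpn -1.23, Eno3 -1.11, Sox6 -0.85, Six4 -0.82, Tbx15 -0.79, Casq1 -0.70, Eya1 -0.68, Igf2 -0.68, Pgam2 -0.68, Thra -0.57 and Cox6a2 -0.57. The change of Slc22a2 and that of P2rx2 rest on groups with at most 3 counts a library and depend on the prior count.

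Between days, the muscle difference of Cre+ mice changed from 2.5 to 8.5 days by Lama3 -4.41, Evpl -2.52, Gdf11 2.09, Arhgap36 -3.39, Ciart 3.002, Pfkfb3 2.00, Cnfn -5.00, Vsig8 -4.77 and Msln -4.51 on the log2 scale (edgeR with the replicate block, called at the thresholds above). The mice of these days also differed in sex-linked transcripts, and no gene was called without the block.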

How the results depend on the processing

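Of 1899 values of 104 named genes under the alternatives, 1633 kept direction and side of the threshold, 241 lost and 20 gained a call, and 5 reversed. Those were Rrp1 in Cre+ mice, not called, with 0.062 under library size alone, 0.058 and 0.057 without the Cre+ mice of 8.5 days replicates 1 and 2 (-0.1 without that of 2.5 days replicate 2) and 0.178 at 2.5 days alone, and Ciart with -0.532 at 2.5 days alone. With DESeq2 there were 103 widened differences, and without a fold threshold 108 widened and 118 reversed. With a log2 threshold of 1 the counts were 2005 in Cre+ mice, 1603 in Cre- mice, 481 for the change between genotypes, 1000 in both, 122 narrowed, 15 widened, 225 new and 7 reversed. Single days were added after seeing the data: 2.5 days alone gave 42 widened, and 8.5 days alone 175 changes, 48 narrowed, 9 widened, 92 new and 26 reversed. The day comparison called 0 genes without the replicate block by edgeR (1414 at an unadjusted p under 0.05), 281 with DESeq2 and 48 with library size alone. Without the block, 280 of 348 narrowed and 463 of 562 new differences were still so grouped. The fast-gene level was -0.265 with library size alone (main -0.403), and the slow-gene level 0.236 with library size alone and 0.206 with a log2 choice over 2 (main 0.067). The fast-gene change thus exceeded the slow-gene change clearly in the main setting, but the sizes were similar under library size alone. Leaving out each mouse gave 3980 to 4776 calls in Cre+, 2914 to 3550 in Cre-, 421 to 1164 changes, 1840 to 2102 in both, 128 to 350 narrowed, 18 to 69 widened, 228 to 613 new and 29 to 45 reversed, distances of 0.0297 to 5.86, fast levels of -0.453 to -0.345 and slow levels of 0.034 to 0.109. The causes were not tested. With 4 mice a genotype, differences of low-count genes carry wide intervals.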
